A study of Mus musculus with 50 samples.

Results

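The genes described here are the expressed Zfp zinc finger genes of mouse embryonic stem cells. They were chosen as genes whose symbol is Zfp followed by a number, leaving out 3 symbols (Zfp36, Zfp42 and Zfp809), with a mean of at least 5 FPM over the 4 libraries of untreated wild-type cells. FPM is the reads of a gene scaled to a fixed library total and carries no correction for transcript length. Of 342 such symbols in the deposited table, 139 met the rule, 203 lay below it, and the table held 19204 genes in all. The genes were thus chosen by their measured level in untreated wild-type cells, and every comparison that uses those libraries is given as a description without a test.

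The cells were KH2 embryonic stem cells (C57BL/6 x 129/Sv hybrid), grown in serum with LIF and plated on gelatin for 48 h. WT cells were set beside Ythdf1_KO, Ythdf2_KO and Ythdf3_KO, each labelled as lacking 1 of the 3 cytoplasmic readers of N6-methyladenosine (m6A, a methyl mark on mRNA), and beside Triple_KO, labelled as lacking all 3. Every genotype received 5 µM actinomycin D, which stops transcription, and RNA was read from its 3′ end after 0, 4 and 8 h. Replicates A and B of a genotype gave duplicate libraries at 0 h and 8 h and a single library at 4 h, which makes groups of 4, 2 and 4 and 50 libraries in all. Whether A and B came from separate cultures is not stated in the labels. P-values then measure only the spread between these samples, which may be technical. In their reads, A and B differed no more than duplicate libraries did (median chi-square per degree of freedom of 1.37 and 1.41). Which part of each gene was edited, and how many clones stand for a genotype, is not given in the sources used here.

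Zfp genes of this kind encode proteins built from C2H2 zinc fingers, small folds that hold a zinc ion and read a few bases of DNA each. Many also carry a KRAB domain, which recruits the corepressor TRIM28 (KAP1) and through it the histone methyltransferase SETDB1, so that the DNA bound by the fingers is packed into heterochromatin. In embryonic stem cells this route silences endogenous retroviruses and keeps the DNA methylation of imprinted regions. Other Zfp genes lack the domain and serve as activators, as adaptors or in RNA metabolism and translation.

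The coding sequences showed how alike many of the genes are. A KRAB match was found in 66 members, called KRAB members here, 72 had none, and Zfp267 had no coding model to read. The match allowed 3 mismatches at the 14 fixed letters of a 30-residue KRAB A box pattern. It was sought in the first 300 residues of a single coding transcript per gene. A member without a match may still carry a KRAB domain. The median member held 9 C2H2 fingers, 12 in the KRAB members and 7.5 in the others, and 68 members held at least 10. Zfp330, Zfp365 and Zfp935 held no match to the finger pattern used. The following 30-base windows are shown because neighbouring fingers are joined by a short linker whose codons recur from gene to gene: the capitals mark GGAGAGAAACCC, the 12-base in-frame word held by the largest number of members (40 of the 138 with a coding model). Coordinates are on GRCm38.p6 (mm10), and each sequence is read along the coding strand.
Zfp808, chr13:62171505-62171534, plus strand: catactGGAGAGAAACCCttcaaatgtaat
Zfp960, chr17:17087269-17087298, plus strand: aatactGGAGAGAAACCCtttgaatgtatt
Zfp97, chr17:17144484-17144513, plus strand: aatactGGAGAGAAACCCtttgaatgtatt
Zfp617, chr8:71932476-71932505, plus strand: cacactGGAGAGAAACCCtatgtgtgtaag

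The windows of Zfp960 and Zfp97 were identical, and both genes lie within 1 run of neighbouring members. How reads that match several genes were treated is not given in the sources used here, so the values of members with close paralogs may be uncertain. Zfp808 held 17 copies of the word beside 22 fingers, the highest number of copies of any member. The word was held by 36 of 66 KRAB members (54.5%) and by 4 of 72 others (5.56%). Among all 21503 coding genes 0.939% held it in the coding sequence, and of the 61 holders among the 8637 coding genes tested 40 were members. Because the word was picked as the commonest in these members, a higher share in them was built into the choice. On the reverse strand of the coding sequence it was found in 0 of the genes tested. A match describes the sequence only.

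A further shared feature was exon structure. The largest coding exon held a median of 82.5% of the coding sequence in the members (86.7% in KRAB members and 61.8% in the others), against 24.0% in the 8637 coding genes tested. The members had a median of 5 exons and the coding genes tested 9. Many members lie beside each other: 79 of the 139, of which 57 were KRAB members, stood in 22 runs in which neighbouring members were within 1 Mb. Chromosome 7 carried 33 members, chromosome 17 carried 17 and chromosome 13 carried 14.

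Library totals recovered from the values were 796921 to 2341410 reads, and 1 read was worth 0.427 to 1.25 FPM. The genes of the table held 43.3% of a WT library at 0 h and 33.2% at 8 h, and 44.3% and 41.1% in Triple_KO, so every FPM value is a share of a total whose make-up moved with time and genotype. Scaling each library to the median of its genes instead moved the median 8 h against 0 h change of all genes in WT by 0.60 on the log2 scale. All 10 stem cell markers were read in every group, though Nanog ran only from 0 to 3.38 FPM in WT at 0 h. Their summed level at 0 h was 2536 to 2626 FPM in Triple_KO and 3012 to 3191 FPM in WT. Pou5f1, Esrrb, Tfcp2l1, Dppa5a and Tdgf1 were lower in every Triple_KO library than in any WT library at 0 h. The ranges of Sox2, Nanog, Zfp42, Klf4 and Fgf4 overlapped. The 10 fibroblast feeder markers summed at 0 h to 489 to 537 FPM in Triple_KO, 358 to 418 in WT and 260 to 460 in the single knockouts. Acta2, Vim, Col1a1, Col1a2, Thy1 and Col3a1 were higher in every Triple_KO library than in any WT library at 0 h. The ranges of S100a6 (153 to 180 FPM in Triple_KO, 157 to 203 in WT), S100a4, Postn and Dcn overlapped. Col1a1 and Vim were read in every library, and Dcn was at 0 in some libraries of every group. The part of these marker differences in the results below was not tested, and in bulk RNA fewer cells of a type and less RNA per cell cannot be told apart. The readers' own reads did not fall to 0 in their knockouts. At 0 h Ythdf1 averaged 57.2 FPM in WT, 56.9 in Ythdf1_KO and 42.5 in Triple_KO, Ythdf2 51.5 in WT, 33.1 in Ythdf2_KO and 86.2 in Triple_KO, and Ythdf3 23.2 in WT, 23.8 in Ythdf3_KO and 21.5 in Triple_KO. At 8 h Ythdf2 averaged 45.3 FPM in Triple_KO and 10.8 in WT. Whether these reads overlap the edited part is not known here, and the levels do not check the labels of the knockouts.

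In untreated WT cells the members were mostly of low level. Their mean FPM had a median of 11.2 with quartiles of 6.86 and 20.8, beside a median of 17.1 for all genes tested. In all, 61 members lay below 10 FPM, 70 between 10 and 50 and 8 at or above 50. KRAB members had a median of 9.19 FPM and the others 12.7. The 30 to 1982 reads summed over the 4 libraries, with a median of 68, set the precision of each value. Just inside the threshold of 5 FPM stood Zfp120 at 5.13, Zfp704 at 5.14, Zfp959 at 5.205 and Zfp667 at 5.24, and just outside it Zfp426 at 4.99995, Zfp185 at 4.95, Zfp787 at 4.92 and Zfp944 at 4.91. A member that fell below the threshold in another sample was kept. All 139 members also passed the filter on low values used for the tests.

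The member with the highest FPM, a scale with no length correction, was Zfp57, a KRAB zinc finger protein that binds methylated imprinting control regions and preserves their methylation. Its WT libraries at 0 h read 331, 316, 369 and 310 FPM. The next member, Zfp207, a microtubule-binding protein of the mitotic spindle, read 146, 148, 142 and 131 FPM. The 4 WT libraries of either gene lay close together.

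At 0 h, Triple_KO was compared with the mean of the 3 single knockouts, a contrast that leaves out the WT libraries that chose the members. Of the 139 members, 15 changed: 12 rose and 3 fell, which is 10.8% of members beside 23.1% of the 8660 genes tested (15.6% rose, 7.58% fell; limma, Benjamini-Hochberg adjusted p under 0.05). The members' share was below this background, but their levels were lower too. In WT at 0 h their median was 11.2 FPM, and that of all genes tested was 17.1 FPM. The part of this lower level in this share and in the shares of calls below was not tested. The median difference of the members was 0.05 on the log2(FPM + 1) scale, beside 0.08 for all genes, and it was -0.02 with each library scaled to the median of its genes and -0.03 with TMM scaling. The split was 7 rises and 4 falls with median scaling, 7 and 5 with TMM, and 9 and 6 in edgeR on the recovered reads. Here and below, counts under alternatives are given without the share of all genes under each setting. Of the 3 falls, all were KRAB members, of which 5 rose.

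Zfp57 read 264, 252, 254 and 218 FPM in the 4 Triple_KO libraries. The 12 single-knockout libraries ran from 256 to 322 FPM with a median of 289. Of the 4 Triple_KO libraries, 3 lay below all 12, and the difference was -0.22 ± 0.05 (SE; limma adjusted p = 0.00014). Leaving out Triple_KO replicate B ended the call (-0.15, adjusted p = 0.11).

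Zfp459, a KRAB member, read 6.75, 12.7, 7.02 and 9.15 FPM in Triple_KO against 11.4 to 21.4 FPM with a median of 14.8 in the single knockouts. The ranges overlapped in 1 Triple_KO library, and the difference was -0.73 ± 0.19 (limma adjusted p = 0.0018). Zfp961 was the third fall, at -0.35 ± 0.13 (adjusted p = 0.033).

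Zfp771 had the firmest rise. It read 44.2, 46.5, 46.4 and 53.5 FPM in Triple_KO, and 22.1 to 46.7 FPM with a median of 30.1 in the single knockouts. The difference was 0.64 ± 0.13 (limma adjusted p = 1.4e-05), and Zfp771 was the single member that passed under every alternative run for this contrast. Zfp445, a second KRAB protein of imprinting control, read 30.1, 31.0, 30.2 and 24.6 FPM against 16.8 to 25.7 FPM with a median of 21.04, a difference of 0.44 ± 0.15 (adjusted p = 0.021). Of its 4 Triple_KO libraries, 3 lay above all 12 others.

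Zfp622, a factor that matures the large ribosomal subunit, differed by 0.37 ± 0.09 (limma adjusted p = 0.0012), and Zfp593, which also acts in large-subunit biogenesis, by 0.52 ± 0.15 (adjusted p = 0.0050). Zfp74, Zfp105, Zfp566, Zfp768 and Zfp365 rose by 0.63 to 0.85, and Zfp428, Zfp568 and Zfp980 rose by 0.22 to 0.39. Most of the 15 calls were lost in some alternatives: 4 members passed without Triple_KO replicate A and 5 without replicate B, 5 with no filter on low values, and 1 with the spread taken from all times (Zfp771, limma adjusted p = 0.045).

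**Figure D1:**
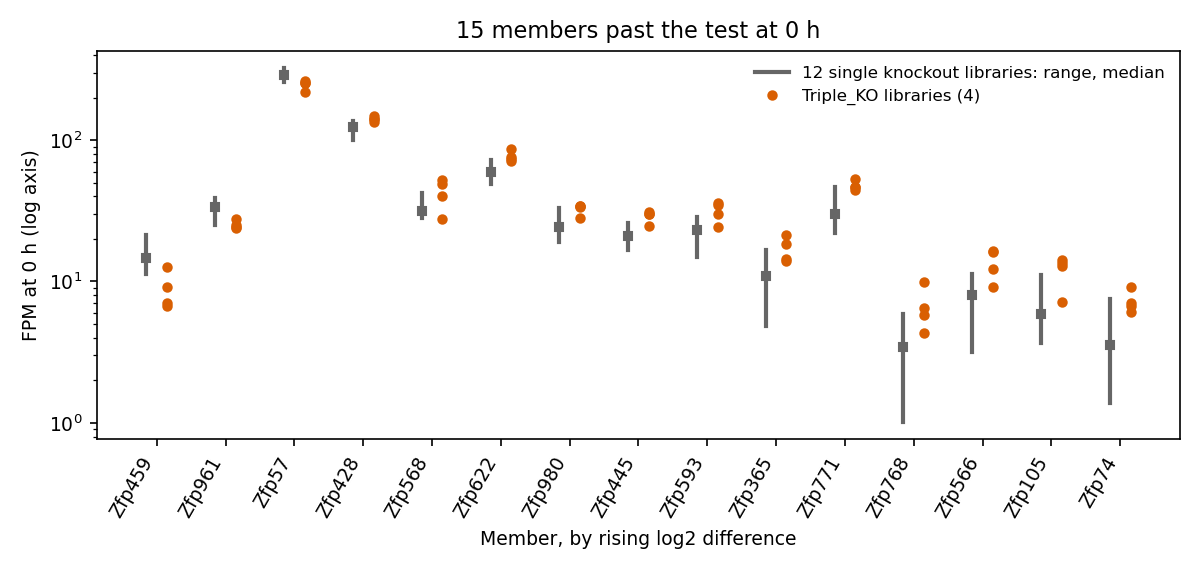
The 15 members that passed the test between Triple_KO and the single knockouts at 0 h. Shown are the FPM of each Triple_KO library and the range and median of the single-knockout libraries. Zfp771 stands between 44.2 and 53.5 FPM in Triple_KO, and Zfp57 between 218 and 264 FPM.

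Against WT at 0 h, where the rule used the WT libraries, the members' median difference was 0.03 for Ythdf1_KO, -0.06 for Ythdf2_KO, -0.04 for Ythdf3_KO and 0.05 for Triple_KO, beside 0.02, -0.02, -0.01 and 0.07 for all genes. The 4 comparisons share the WT libraries and are not independent of each other. Under median scaling the Triple_KO value was -0.02.

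After transcription was stopped the members lost RNA in every genotype. Their summed level was 2747 ± 80.3 FPM (SD, n = 4 libraries) in WT at 0 h, 1153 ± 12.5 (n = 2) at 4 h and 817 ± 32.5 (n = 4) at 8 h. The 8 h value was 29.7% of that at 0 h. The single knockouts kept 29.2% (Ythdf1_KO), 26.8% (Ythdf2_KO) and 29.8% (Ythdf3_KO) and Triple_KO 42.0%. Its 4 libraries held 1241, 1146, 1225 and 1085 FPM at 8 h. All 4 stood above the 16 other libraries of 8 h, of which the highest held 856 FPM. As a share of the reads in listed genes, the members went from 0.635% to 0.246% in WT and from 0.630% to 0.286% in Triple_KO, whose 4 libraries at 8 h (0.274% to 0.299%) again lay above the other 16 (0.217% to 0.267%).

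**Figure D2:**
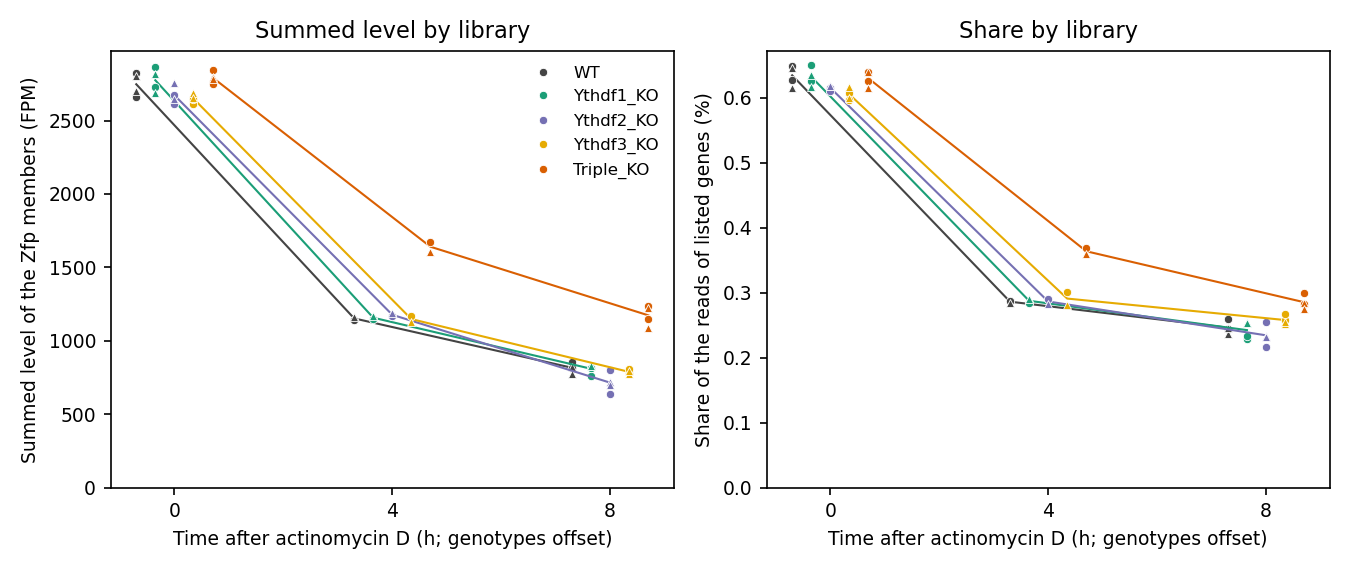
Summed FPM of the 139 members in each of the 50 libraries, by genotype and hours of actinomycin D. The WT libraries end between 777 and 856 FPM at 8 h and the Triple_KO libraries between 1085 and 1241 FPM.

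Within each knockout the loss was tested against its own 0 h libraries, which the rule did not use. In Ythdf1_KO 126 members fell, beside 54.6% of the 9042 genes tested, and in Triple_KO 92 (66.2%), beside 25.8%. Ythdf2_KO had 130 falls beside 62.7%, and Ythdf3_KO 125 beside 59.7%. Members' shares stood above the background in all 4. By limma 0 members rose, with 0 at an unadjusted p under 0.05, where the genes tested had 1.38%, 0.597%, 0.664% and 3.44% rises in the order Ythdf1_KO, Ythdf2_KO, Ythdf3_KO and Triple_KO. The sets are not alike, since genes tested could enter through their 4 h or 8 h levels alone. The lowest WT level at 0 h was 5.13 FPM in members and 0.154 FPM in the genes tested. Genes low at 0 h with room to rise were thus kept out of the members only, and shares of rises and falls carry this limit. The edgeR test on recovered reads gave 0 rises in Ythdf1_KO, while Ythdf2_KO had 2 (Zfp106 and Zfp692) and Ythdf3_KO and Triple_KO had 1 each (Zfp106), named after their values were seen.

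The members' median change in the same order was -1.92, -1.88, -1.84 and -1.36, beside -0.77, -0.92, -0.83 and -0.39 for all genes. The difference between the medians of members and of all genes was -1.14, -0.97, -1.01 and -0.97 in that order, -1.23, -1.09, -1.14 and -0.96 with median scaling, and -0.56, -0.49, -0.48 and -0.55 with a pseudocount of 5. With median scaling 61 members fell in Triple_KO. With TMM scaling 57 fell there, 81 in Ythdf2_KO and 78 in Ythdf3_KO, while Zfp106 rose in the last pair. No share of all genes under these scalings is given here to set beside those counts. Without Triple_KO replicate A 39 members fell there and without replicate B 38. WT, given as a description, had a median of -1.90 beside -0.81. A log2(FPM + 1) difference understates the change of low genes.

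The members were also counted by the KRAB match. In Triple_KO 48 of 66 KRAB members and 43 of 72 others fell, and in Ythdf1_KO 64 and 61. The median RNA left after 8 h was 18.4% in WT for KRAB members and 27.5% for the others, and 30.3% and 40.2% in Triple_KO. Over all members WT kept 21.6%, the single knockouts 21.9%, 19.3% and 21.1%, and Triple_KO 34.5%, where the median of all genes was 55.0%, then 57.4%, 50.2% and 53.7%, and 75.5%. Fewer than 25% of the 0 h level remained in 78 members in WT (56.1%, beside 17.3% of all genes) and in 42 in Triple_KO (30.2%, beside 6.02%). The difference between KRAB and other members was not tested.

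**Figure D3:**
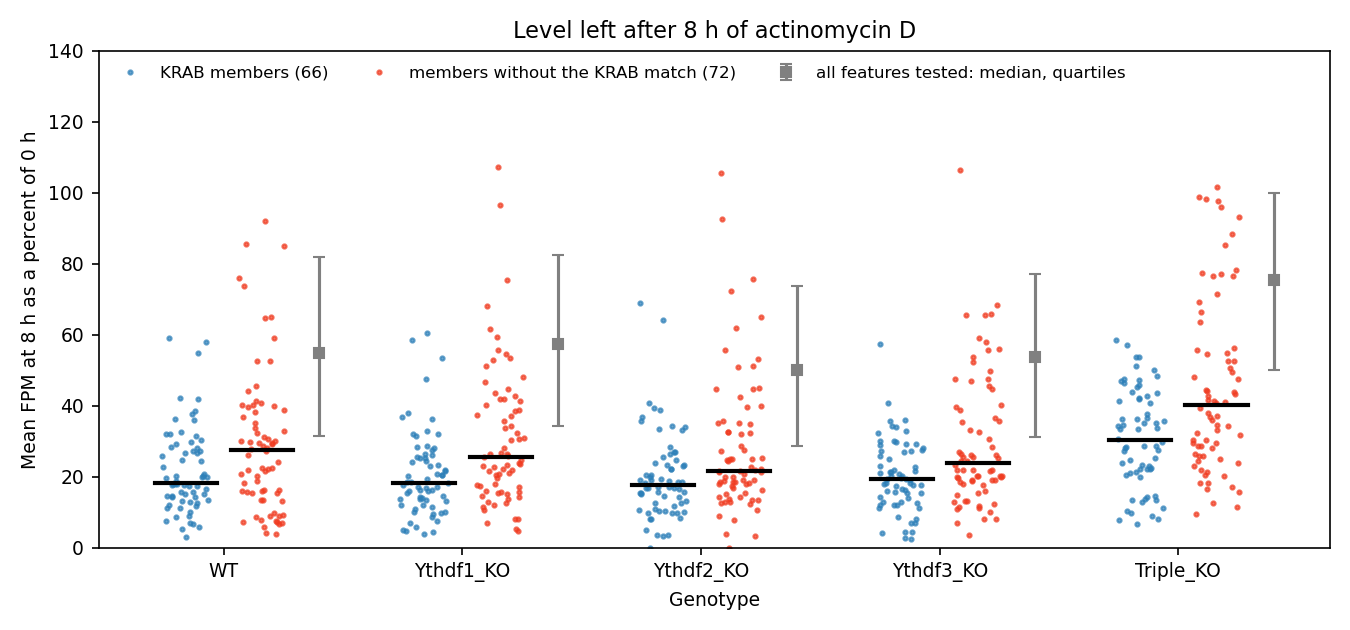
Percent of the 0 h level left at 8 h for the 66 KRAB members and the 72 without the match, by genotype, beside the median of all genes tested. Over all 139 members the median kept was 21.6% in WT and 34.5% in Triple_KO, and all genes kept 55.0% and 75.5%.

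Zfp296, a transcription factor of pluripotent cells that acts with KLF4, had the largest fall in Triple_KO. It read 71.8, 75.9, 70.2 and 63.6 FPM at 0 h and 8.06, 7.94, 5.74 and 5.30 FPM at 8 h. The groups did not overlap and the change was -3.22 ± 0.29 (limma adjusted p = 4.9e-14). Its changes in the single knockouts, all past the test, were -3.14 (Ythdf1_KO), -3.26 (Ythdf2_KO) and -2.96 (Ythdf3_KO).

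In Triple_KO the next largest falls were Zfp707 (-2.69 ± 0.54), Zfp65 and Zfp566 (both -2.67), Zfp1 (-2.63) and Zfp217 (-2.52 ± 0.40). Zfp217 associates with the corepressor CtBP and has been described as a partner that limits the m6A methyltransferase in embryonic stem cells. It read 27.6, 24.9, 28.1 and 32.3 FPM at 0 h and 4.39, 9.38, 2.55 and 2.35 FPM at 8 h in Triple_KO. In Ythdf2_KO the largest were Zfp1 (-3.30 ± 0.43), Zfp296, Zfp59 (-3.06), Zfp97 (-2.96), Zfp292 (-2.87) and Zfp574 (-2.82). The 6 largest falls of Triple_KO and of Ythdf2_KO passed the test under every alternative run.

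Some members of Triple_KO kept most of their RNA. Zfp106, an RNA-binding protein needed in motor neurons, read 64.4, 57.6, 68.0 and 64.5 FPM at 0 h in Triple_KO and 61.5, 58.5, 75.2 and 53.6 FPM at 8 h. The libraries overlapped and the change was -0.04 ± 0.14 (limma adjusted p = 0.87), which edgeR on recovered reads gave as 0.35 and called (adjusted p = 0.012). Zfp326, of a complex that links mRNP particles to RNA polymerase II elongation, had -0.03, Zfp692 0.01 and Zfp365 -0.02, none of which passed, and the signs of Zfp326 and Zfp365 turned with median scaling (0.23 and 0.27). In Ythdf2_KO Zfp106 fell by 0.47 on the log2 scale (limma adjusted p = 0.0041), but was 0.33 with median scaling and rose by 0.39 with TMM (adjusted p = 0.023). Zfp106 in Ythdf3_KO was 0.09, and 0.82 with median scaling, which called it (limma adjusted p = 3.8e-06).

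At 8 h, Triple_KO was compared with WT at the same time. Of the members, 25 were higher (18%), beside 29.3% of the genes tested, and 0 were lower by limma (0 at an unadjusted p under 0.05), beside 1.34%. The members' share of rises was below the background, with the same limit of their lower level. The members' median was 0.45, and that of all genes 0.45. Under median scaling 9 members were higher and 1 lower (Zfp57), under TMM 10 and 1 (Zfp57), and in edgeR on recovered reads 9 and 5 (Zfp1, Zfp57, Zfp106, Zfp263 and Zfp266, named after their values were seen). The members' median was then 0.19, 0.21 and 0.17, beside 0.06, 0.08 and 0.03 for all genes, and with a pseudocount of 5 it was 0.20 beside 0.29. The share of all genes higher or lower under these settings is not given here. Of the 25, 6 were KRAB members of 66 and 19 were others of 72. The count was 16 without WT replicate B, 15 without Triple_KO replicate A and 14 without Triple_KO replicate B.

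Zfp771 read 5.71, 13.04, 10.97 and 7.04 FPM in WT at 8 h. In Triple_KO it read 46.9, 44.0, 47.2 and 39.4 FPM, and the 12 single-knockout libraries ran from 6.26 to 18.3 FPM. Triple_KO stood above all other libraries of that time by a wide margin, and the difference from WT was 2.21 ± 0.25 (limma adjusted p = 7.2e-11). It also stood highest at 4 h, at 52.1 and 56.3 FPM against 9.47 and 19.1 FPM in WT (1.93 ± 0.25, adjusted p = 8.8e-09).

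Zfp64 read 3.43, 3.01, 1.69 and 2.64 FPM in WT and 13.9, 10.1, 12.1 and 15.3 FPM in Triple_KO at 8 h (1.92 ± 0.33, limma adjusted p = 2.7e-06). Zfp24, a SCAN-domain protein of myelination, read 5.71, 2.01, 2.53 and 1.76 FPM against 16.1, 9.38, 12.1 and 8.83 FPM (1.72 ± 0.40, adjusted p = 0.00047). Zfp568, a KRAB repressor of a placental Igf2 transcript, read 9.13, 8.03, 6.75 and 8.80 FPM against 24.9, 23.1, 22.96 and 25.9 FPM (1.46 ± 0.28, adjusted p = 2.4e-05). In each of the 3 the groups did not overlap.

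Zfp473, a component of histone pre-mRNA processing, read 0, 0, 0 and 2.64 FPM in WT and 2.20, 3.61, 6.38 and 4.12 FPM in Triple_KO (1.81 ± 0.48, limma adjusted p = 0.0021). The ranges overlapped, 3 of the 4 WT libraries were at 0, and the call ended without WT replicate A (adjusted p = 0.079) or without Triple_KO replicate B (0.081). Zfp511 differed by 1.65 ± 0.37 (adjusted p = 0.00037) and Zfp131, a BTB-domain factor, by 1.55 ± 0.46 (adjusted p = 0.0063), the latter losing its call in edgeR (0.26) and without Triple_KO replicate B (0.060). Zfp24, Zfp428, Zfp511, Zfp568, Zfp593, Zfp64 and Zfp771 passed under every alternative run.

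The 4 Triple_KO libraries lay above all 16 other libraries of 8 h in 11 members (7.91%), beside 14.1% of the genes tested: Zfp24, Zfp64, Zfp91, Zfp365, Zfp428, Zfp511, Zfp568, Zfp593, Zfp598, Zfp771 and Zfp984. Of 82 members with at least 75% of their coding sequence in 1 exon 12 were higher than WT (14.6%), with a median of 0.51. Of 700 other coding genes of that structure 285 were higher (40.7%), with a median of 0.86, and the difference between the sets was not tested.

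Zfp598, the ubiquitin ligase that marks collided ribosomes, read 24.0, 19.1, 21.9 and 27.3 FPM in WT and 36.6, 46.9, 47.2 and 38.3 FPM in Triple_KO (0.85 ± 0.18, limma adjusted p = 0.00013). Zfp622 differed by 0.80 ± 0.23 (adjusted p = 0.0045) and Zfp593 by 1.45 ± 0.28 (adjusted p = 3.9e-05). Zfp593 passed under every alternative run. With median scaling Zfp598 was 0.42 (adjusted p = 0.090) and Zfp622 0.39 (adjusted p = 0.25), and both also lost the call with TMM scaling and in edgeR. Zfp622 lost it without WT replicate B (adjusted p = 0.077) or Triple_KO replicate B (adjusted p = 0.053) as well. Zfp207 differed by 0.44 ± 0.14 (adjusted p = 0.0086), a call lost with median scaling (0.0033, adjusted p = 0.99), with TMM scaling (0.03, adjusted p = 0.92) and in edgeR (-0.0082, adjusted p = 0.98). The pluripotency regulators Zfp281 and Zfp462 had 0.59 ± 0.32 (adjusted p = 0.16) and 0.10 ± 0.38 (adjusted p = 0.88) and did not pass, and neither did Zfp445 (0.19) or Zfp57 (-0.06). With median scaling Zfp462 and Zfp445 were -0.30 and -0.22, not past the test, and Zfp57 was -0.50 and passed (adjusted p = 0.00012).

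Other members of known role had smaller or less certain differences from WT at 8 h. Zfp346, which binds double-stranded RNA, had 0.94 ± 0.38 (limma adjusted p = 0.054), and Zfp91, a ubiquitin ligase of NF-kB signalling, 0.90 ± 0.43 (adjusted p = 0.10). Zfp292 had 0.52, Zfp219 0.13 (-0.31 with median scaling), Zfp335, a part of a histone H3K4 methyltransferase complex, -0.11, and Zfp143, an activator bound at many promoters, -0.25. None of these 6 passed. Within Triple_KO, Zfp143, Zfp292, Zfp335 and Zfp219 fell over 8 h by 1.96, 1.85, 1.62 and 0.86 on the log2 scale, while Zfp91 (-0.37) and Zfp346 (-0.23) did not pass.

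At 4 h, 29 of the 139 members were higher in Triple_KO than in WT, beside 23.7% of the genes tested, and the shares lay close together. By limma 0 were lower (2 at an unadjusted p under 0.05), beside 3.55%. The median difference was 0.49 for members and 0.32 for all genes, and it was 0.25 and 0.08 with median scaling, 0.20 and 0.03 with TMM scaling and 0.27 and 0.23 with a pseudocount of 5. Under median scaling 15 were higher and 2 lower (Zfp57 and Zfp7), under TMM 14 and 2, and in edgeR 11 and 1 (Zfp57). Those counts also stand without a share of all genes. Of the 29, 8 were KRAB members and 21 were others. The count was 15 without either Triple_KO replicate and 18 with no filter on low values. Zfp770 read 6.60 and 5.58 FPM in Triple_KO against 0 and 0.798 in WT (2.40 ± 0.53, limma adjusted p = 0.00035), and Zfp646 was 2.00 ± 0.53 (adjusted p = 0.0030). Zfp770 and Zfp771 passed under every alternative run for this contrast, and Zfp646 lost its call without WT replicate A or Triple_KO replicate B.

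**Figure D4:**
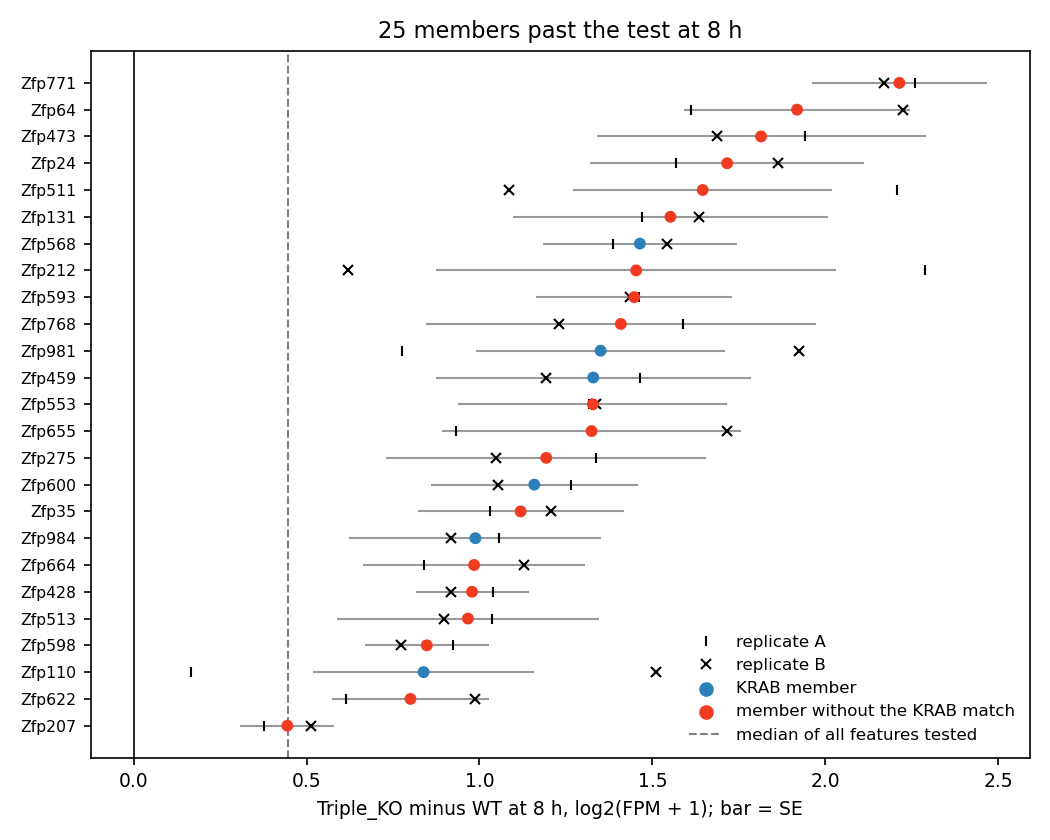
Difference between Triple_KO and WT at 8 h on the log2(FPM + 1) scale for the members that passed the test, with the values of replicates A and B. The largest are Zfp771 at 2.21 and Zfp64 at 1.92.

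The decay difference is the 8 h against 0 h change of Triple_KO minus the mean change of the 3 single knockouts, tested as a genotype by time contrast. In the 139 members 13 were positive and 0 negative by limma, with 25 and 0 at an unadjusted p under 0.05. Of all genes 16.9% were positive and 0.0442% negative, so the members' share of 9.35% was below the background, with the same limit of their lower level. The median difference was 0.49 for members and 0.42 for all genes, not lower in the members. These medians were 0.24 and 0.06 with median scaling, 0.19 and 0.02 in edgeR, and 0.25 and 0.29 with a pseudocount of 5, where the order of members and all genes turned. The counts that follow have no share of all genes beside them, so whether the losses are particular to the members is not shown. No member passed under median scaling or TMM scaling (6 and 7 members were positive at an unadjusted p under 0.05), 3 passed in edgeR, 0 passed without Triple_KO replicate A (13 at an unadjusted p under 0.05) and 2 without replicate B. Without Ythdf1_KO replicate A, and likewise without Ythdf2_KO replicate B, 8 passed, and 6 with no filter on low values.

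Zfp24, Zfp771 and Zfp568 had the largest such differences, at 1.65 ± 0.46 (limma adjusted p = 0.0070), 1.30 ± 0.29 (adjusted p = 0.00076) and 1.27 ± 0.32 (adjusted p = 0.0030). Under median scaling they were 1.35, 0.91 and 0.90, with adjusted p = 0.15, 0.11 and 0.19, and the call ended. Of the others, Zfp511 had 1.22 ± 0.43, Zfp710 1.15 ± 0.42 and Zfp64 1.11 ± 0.38, with adjusted p = 0.039, 0.048 and 0.031. Zfp638, which acts with the HUSH complex, Zfp961, Zfp593, Zfp207, Zfp598, Zfp428 and Zfp57 made up the 13, between 0.32 and 0.98. Zfp57, the lowest of them at 0.32 ± 0.12 (limma adjusted p = 0.049), was -0.10 with median scaling and -0.12 in edgeR, neither past the test.

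**Figure D5:**
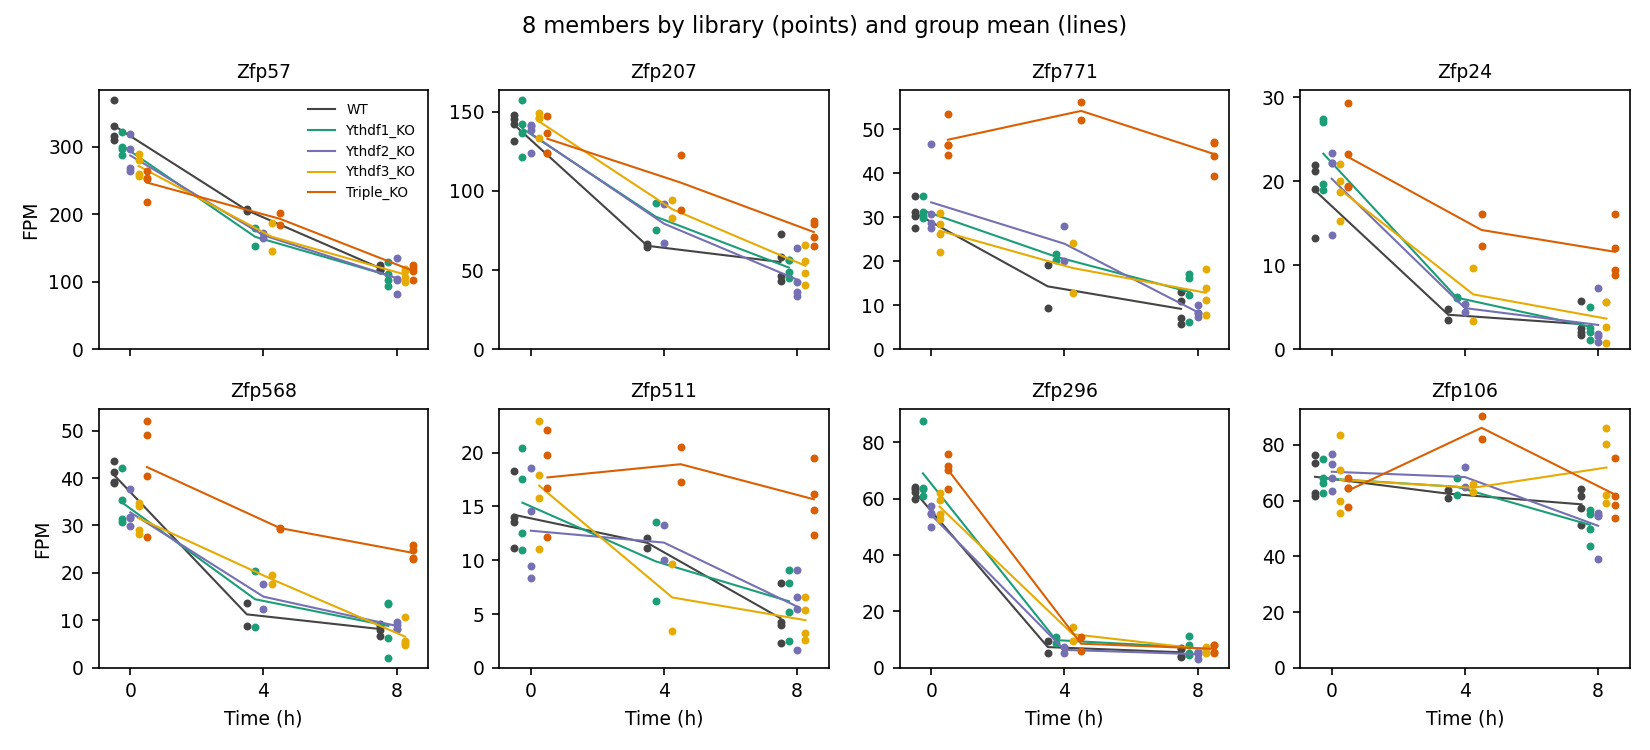
FPM of 8 members over 0, 4 and 8 h in each library (points) with group means (lines). In Triple_KO, Zfp771 stays between 39.4 and 56.3 FPM over the course while the WT libraries fall to between 5.71 and 13.04 FPM at 8 h.

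Members that lie side by side were read together. A run of 9 KRAB members lay on chromosome 4 (145670697 to 147812229), among them Zfp980, Zfp600 and Zfp984. Its median 8 h against 0 h change was -1.77 in WT and -1.22 in Triple_KO. The median Triple_KO minus WT difference of this run at 8 h was 0.61. On chromosome 7 (127233061 to 127885996) 7 members including Zfp771, Zfp768, Zfp553 and Zfp646 had -2.48 and -1.77, and a median Triple_KO minus WT difference at 8 h of 1.11. On chromosome 13 (67339309 to 67789082) 7 KRAB members including Zfp459 and Zfp65 had -1.92 and -1.74, and a difference of 0.19. A further run of 7 members on chromosome 7 (29768552 to 30107622), Zfp568 among them, had -2.20 and -1.44, and a difference of 0.67. Over all members the median difference at 8 h was 0.45. These are the runs of 7 or more members, and the runs were not compared by a test.

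A list of corepressor and heterochromatin genes was also described. Beside Trim28 and Setdb1 it holds general chromatin genes such as Hdac1, Uhrf1 and Dnmt1. Dnmt3a and Suv39h2 were too low to be tested, which left 26 genes. Of these, at 0 h 1 rose (3.85%, beside 15.6% of all genes) and 6 fell (23.1%, beside 7.58%) in Triple_KO against the single knockouts, with Setdb1, the H3K9 methyltransferase, at 0.61 ± 0.11 (limma adjusted p = 8.0e-07) and Trim28 at -0.20 ± 0.03 (adjusted p = 1.6e-08). Between 8 h and 0 h the falls numbered 18 (Ythdf1_KO), 21 (Ythdf2_KO), 21 (Ythdf3_KO) and 18 (Triple_KO), beside 54.6%, 62.7%, 59.7% and 25.8% of all genes. These were 69.2%, 80.8%, 80.8% and 69.2% of the list, with medians of -0.63, -0.86, -0.84 and -0.61, beside -0.77, -0.92, -0.83 and -0.39 for all genes. Under median scaling those counts were 8, 8, 9 and 8 falls, with 4, 8, 10 and 4 rises. Shares of all genes under that scaling are not given here. In Triple_KO against WT at 8 h 6 rose (23.1%, beside 29.3% of all genes), among them Setdb1 (1.02), Daxx (1.04), a histone H3.3 chaperone, and Tasor (1.63), a HUSH subunit. Under median scaling 2 rose, Setdb1 (0.59, adjusted p = 0.013) and Tasor (1.35, adjusted p = 0.012), and 9 fell, and the median of the list went from 0.15 to -0.23. Daxx was then 0.65 and did not pass (adjusted p = 0.14). In edgeR Setdb1 passed (0.60, adjusted p = 0.0089) and Tasor did not (1.21, adjusted p = 0.053). Trim28 was -0.04 with scaling to the library total (limma adjusted p = 0.64). It was -0.48 with median scaling (limma adjusted p = 7.9e-13), -0.46 with TMM scaling (limma adjusted p = 6.6e-12) and -0.48 in edgeR (adjusted p = 3.4e-21), each past the test.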

How the data were processed

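RNA levels were measured by 3′ end RNA-seq in 50 libraries. The authors deposited FPM, reads scaled to the library total (RPM), for each RefSeq transcript, with replicates not pooled. The build mm10, Bowtie2 and CASAVA 1.8.2 are named, per the submitters' processing notes. Strand use, the treatment of reads with several matches and how the table was filtered: not given in the sources used here. All values were whole multiples of 1 read within 0.1 read, which gave the library totals. Of 22338 transcripts 22012 were named through RefSeq genes of GRCm38.p6 and 120 through GENCODE M21. Identical transcripts of a gene were counted once and distinct ones summed.

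Duplicate libraries were averaged as log2(FPM + 1), so that n = 2 replicates per group. Genes that reached 5 FPM in 2 or more replicate means entered limma 3.58.1 (R 4.3.3; moderated with a trend, Benjamini-Hochberg adjustment over all genes tested at 0.05): the 0 h contrast on 10 replicate means, the others on 30. The code was tested on simulated data. Alternatives were a pseudocount of 5, no filter, median and TMM scaling, a replicate block, edgeR 4.0.16 on recovered reads, leaving out a replicate, 1 transcript per gene, and other thresholds. A fit with a replicate left out assumes that the lone sample varies like the other groups.

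KRAB and finger matches came from translated coding sequences of GENCODE M21, since no protein table was used here. Named were the 8 members of highest FPM, the 6 largest changes per main contrast and the 3 largest of the others with the same sign in both replicates, members of known role, those beside the threshold, and up to 4 corepressors. The members and lists were chosen with earlier results of these data known. Replicate letters were checked for pairing by the correlation of A minus B deviations. It was -0.02 to 0.03 over 30 pairs of genotypes at the same time. Over 15 pairs of times of the same genotype it was -0.01 to 0.03. No pairing was seen, but deviations that are largely read sampling would correlate weakly in paired samples too, so pairing is not excluded. Replicates A and B differed by a chi-square per degree of freedom of 1.37 in the median over 45 pairs, and duplicate libraries by 1.41 over 20.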

Additional observations from a re-analysis of the deposited data

Results flagged for a closer look

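In 69 groups of 4 libraries of members named above, the highest or lowest library was checked for a gap to the others. Chance flags about 1 in 20 groups, and 3 were found: Zfp105 at 7.20 FPM in duplicate A2 of Triple_KO at 0 h, below the other 3 libraries, Zfp445 at 24.6 FPM in duplicate B2 of Triple_KO at 0 h, also below, and Zfp473 at 2.64 FPM in duplicate B2 of WT at 8 h, where the other 3 were at 0.

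The decay of 13 members differed between Triple_KO and the single knockouts by limma's test of the genotype by time difference, with Benjamini-Hochberg adjustment. On the log2 scale these differences were 1.65 for Zfp24, 1.30 for Zfp771, 1.27 for Zfp568, 1.22 for Zfp511, 1.15 for Zfp710, 1.11 for Zfp64, 0.98 for Zfp638, 0.97 for Zfp961, 0.93 for Zfp593, 0.67 for Zfp207, 0.65 for Zfp598, 0.64 for Zfp428 and 0.32 for Zfp57. In all 13 less RNA was lost in Triple_KO on the scale of the library total. The value of Zfp57 turned to -0.10 with median scaling, and 0 of the 13 passed with median or TMM scaling, where 6 and 7 members were positive at an unadjusted p under 0.05 and edgeR on recovered reads called 3.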

How the results depend on the processing

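Of 1055 values of 90 named member results under alternatives, 812 kept their direction and side of the threshold, 183 lost the call, 14 gained it and 46 changed sign, and 34 results kept both throughout. Of 89 counts under alternatives 59 stayed within 1.5 times. The tests with only the highest row of each gene were chosen after seeing the data. The cause of the other moves was not tested. For Triple_KO against the single knockouts at 0 h, 15 members became 5 with no filter, 1 in the fit on all times, and 4 to 16 with a replicate left out. Over 8 h, TMM scaling gave 82 in Ythdf2_KO and 79 in Ythdf3_KO, and Triple_KO had 61 with median and 57 with TMM scaling. With a replicate left out the counts were 91 to 99 in Ythdf1_KO, 97 to 103 in Ythdf2_KO, 87 to 103 in Ythdf3_KO and 38 to 39 in Triple_KO. Counts here pool both directions and are given without the share of all genes. Against WT at 8 h, 25 became 10 (median scaling), 11 (TMM), 14 (edgeR), of which 9, 10 and 9 were higher, and 14 to 19 (a replicate left out), and at 4 h 29 became 18 (no filter), 17 (median), 16 (TMM), 12 (edgeR), of which 15, 14 and 11 in the last 3 were higher, and 15 to 27. For the decay difference, 13 became 6 (no filter), 0 (median), 0 (TMM), 3 (edgeR) and 0 to 12. As medians, Ythdf2_KO against WT at 0 h was -0.011 under TMM, Triple_KO against WT at 0 h -0.015 and -0.0065 under median and TMM scaling, the WT decay -1.04 with a pseudocount of 5, -1.43 and -1.38 under the 2 scalings, and the decay difference from WT 0.24, 0.19 and 0.21. A threshold of 10 FPM left 78 members. With the replicate block, which the pairing check did not call for, the counts were 15, 127, 129, 127, 92, 24, 28 and 12 in the order of the contrasts, and changed no count by over 1.5 times. Median reads per member of 68 over 4 libraries limit what can be seen in low members.

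Most of the 46 changes of sign came with median scaling, TMM scaling and edgeR, given here in that order. For 8 h against 0 h in Triple_KO they were 0.26, 0.33 and 0.35 for Zfp106, 0.23, 0.29 and 0.38 for Zfp326, 0.27, 0.34 and 0.37 for Zfp365, and 0.036, 0.10 and 0.14 for Zfp346, with 0.0016 for Zfp91 in edgeR. In Ythdf2_KO they were 0.33, 0.39 and 0.45 for Zfp106 and 0.66, 0.71 and 0.82 for Zfp692. For Triple_KO against WT at 8 h they were -0.30, -0.27 and -0.43 for Zfp462, -0.22, -0.19 and -0.31 for Zfp445, -0.31, -0.29 and -0.31 for Zfp219, and -0.36, -0.34 and -0.37 for Zfp106, with -0.0082 for Zfp207 in edgeR. For the decay difference they were -0.10, -0.094 and -0.12 for Zfp57. With a replicate left out, the signs of these results differed within their ranges. For 8 h against 0 h in Triple_KO the ranges were -0.58 to 0.53 for Zfp326, -0.13 to 0.15 for Zfp692 and -0.18 to 0.14 for Zfp365, and in Ythdf2_KO -0.22 to 0.027 for Zfp692. For Triple_KO against WT at 8 h they were -0.13 to 0.32 for Zfp462, -0.20 to 0.59 for Zfp445, -0.12 to 0.0051 for Zfp57, -0.011 to 0.26 for Zfp219, -0.69 to 0.48 for Zfp335 and -0.56 to 0.064 for Zfp143.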
